A study of Mustela putorius furo and Mus musculus with 4 samples.

Results

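The CSF1 receptor and the growth factors that bind it were examined in cultured astrocytes of the ferret and the mouse, together with genes that identify microglia. The set holds 10 genes, chosen by symbol without regard to case, and 13373 symbols had values in both species. The 2 ligands are Csf1 and Il34. The 8 microglial genes are Csf1r, Spi1, Irf8, Trem2, Tyrobp, Mpeg1, Aif1 and Ptprc. A single row carried each symbol, all 10 genes had a value in the ferret libraries, and 9 had one in the mouse libraries. The mouse value of Irf8 was not analysed here. The set was chosen with the FPKM of both species in these same libraries known, so their differences are given as a description, with no test.

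The astrocytes came from ferrets (Mustela putorius furo, postnatal day 1, 2 libraries) and from ICR mice (postnatal day 1 to 3, 2 libraries). Cells of the cerebral cortex grew in serum for 14 days and were shaken for 12 h, a step that washes off loosely attached cells such as microglia. They were then replated and moved to serum-free medium before RNA was taken. No genotype or drug set the groups apart, and each library held RNA of a whole culture. Whether each pair of libraries stems from separate cultures is not given in the sources used here, so p-values measure the spread between these libraries, which may be technical. Species, genome annotation and culture cannot be told apart in this design.

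Microglia are the resident macrophages of the brain, and their survival depends on CSF1R, a receptor tyrosine kinase. CSF1 and IL-34 are unrelated in sequence and bind the same receptor; in the brain CSF1 is made mainly by glia and IL-34 mainly by neurons. The identity of these cells rests on the transcription factors PU.1 (Spi1) and IRF8, and the surface receptor TREM2 signals through the adaptor TYROBP (DAP12), whose tail holds an activation motif with a pair of tyrosines that recruit the kinase SYK once phosphorylated.

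The coding stretch of this motif is shown because Tyrobp had the highest level of the microglial genes in the mouse and because the kinases that act below it are described later. It is the spliced sense sequence of the mouse transcript in GENCODE on GRCm38, spans exons 4 and 5 of 5 at chr7:30415670-30417382 on the plus strand, and has the codons of both tyrosines in capitals.
Tyrobp activation motif, 45 bases: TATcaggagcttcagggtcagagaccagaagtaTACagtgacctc

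Levels are given as FPKM, a fragment number divided by exon length and by library size, as the authors deposited them. Differences are given on the log2(FPKM + 1) scale, ferret minus mouse, which understates the change of genes with low values. The median log2 difference of the 10204 genes tested was -0.35, and over the same genes it moved to -0.01 once the libraries were rescaled to a common sum and to 0.06 once they were quantile normalized. Of the genes called, 30.3% were higher in ferret astrocytes with FPKM as deposited, 47.0% after rescaling and 50.2% after quantile normalization. Duplicates differed by a median of 0.0844 (ferret) and 0.0657 (mouse) on the log2 scale, regardless of sign.

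Both ligands were detected in all 4 libraries, Csf1 at the higher level in the mouse and Il34 at the higher level in the ferret. Csf1, the growth factor after which the receptor is named, stood at 45.8 and 50.8 FPKM in the ferret libraries and at 105 and 101 FPKM in the mouse libraries. Its mean level was 48.3 ± 3.53 FPKM in ferret and 103 ± 2.60 FPKM in mouse astrocytes (SD, n = 2 each), so that mouse astrocytes held 2.14 times the ferret level. The log2 difference was -1.08 (standard error 0.066). It was -0.70 with the libraries rescaled to a common sum and -0.75 after quantile normalization, with the mouse still the higher. The mouse gene (GRCm38 chromosome 3, 107741048 to 107760469, minus strand) has no other gene annotated across it.

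Il34 stood at 22.9 and 21.6 FPKM in the ferret libraries and at 3.74 and 5.65 FPKM in the mouse libraries. The groups did not overlap, and the lowest ferret value was 3.83 times the highest mouse value; 35.1% of all genes tested had the ferret pair on top in this way. The mean level was 22.2 ± 0.891 FPKM in ferret and 4.69 ± 1.35 FPKM in mouse astrocytes (SD, n = 2 each), a log2 difference of 2.05 (standard error 0.133). Il34 was the one member higher in the ferret, and ranked at position 371 of 10204 from the top by this difference. In the mouse 2 antisense genes overlap the Il34 locus (chromosome 8 of GRCm38, from 110741829 to 110805924, minus strand), and whether the quantification used strand is not given in the sources used here.

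The balance of the ligands was unlike in the 2 species. The share of Il34 in the FPKM of both ligands together was 33.3% and 29.9% in ferret, and 3.43% and 5.27% in mouse libraries. The ligands together came to 68.6 and 72.4 FPKM in the ferret and to 109 and 107 FPKM in the mouse.

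**Figure D1:**
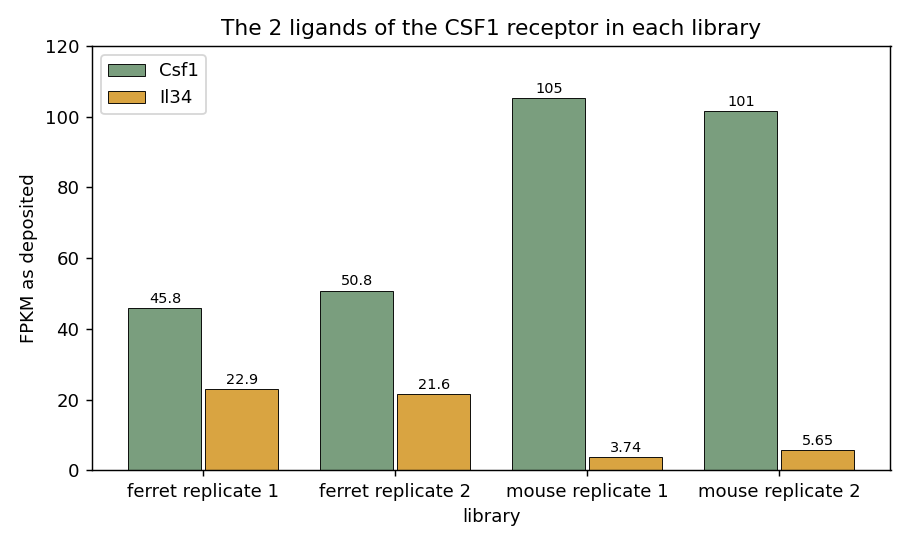
FPKM of Csf1 (green bars) and Il34 (yellow bars) on the y axis in each of the 4 libraries on the x axis, with the value above each bar. Csf1 is the higher ligand in every library, and Il34 reaches 22.9 and 21.6 FPKM in the ferret against 3.74 and 5.65 in the mouse.

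The microglial genes went in the direction of Csf1, lower in the ferret, and opposite to Il34, but their ratios between species were far larger than that of Csf1. All 7 microglial genes with values in both species had both mouse libraries above both ferret libraries, as did 59.0% of all genes tested. This count repeats the contrast known when the genes were chosen, and nothing is read from it. Over these 7 genes the mouse libraries ranged from 4.75 to 148.8 FPKM and the ferret libraries from 0.0229 to 1.04 FPKM. The ferret mean was under 1 FPKM for all 7, as it was for 10.2% of the genes tested. These 7 genes passed the filter on low values only through the mouse. In RNA of whole cultures, fewer microglia and less of these RNAs per cell cannot be told apart. By staining, the paper counted a smaller share of microglia in ferret than in mouse cultures. Those cultures were kept in serum, unlike the ones used for RNA, and how far this share goes with the RNA was not tested.

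Csf1r, the receptor of both ligands, stood at 0.233 and 0.296 FPKM in the ferret and at 33.6 and 30.6 FPKM in the mouse libraries. The mouse mean was 121 times the ferret mean, with a log2 difference of -4.71 (standard error 0.079). Set against its ligands, Csf1 exceeded Csf1r in FPKM by factors of 196 and 171 in the ferret, and of 3.13 and 3.32 in the mouse. For Il34 to Csf1r it was 98.1 and 73.0 in the ferret, and 0.111 and 0.185 in the mouse, where the receptor exceeded this ligand. The ferret factors rest on Csf1r levels of 0.233 and 0.296 FPKM, so their size is rough.

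Of the transcription factors, Spi1, which encodes PU.1, stood at 0.0841 and 0.0493 FPKM in the ferret and at 13.4 and 12.6 FPKM in the mouse. Its log2 difference was -3.72 (standard error 0.077). Irf8, the partner of PU.1 at many macrophage enhancers, stood at 0.336 and 0.339 FPKM in the ferret libraries, the closest pair of ferret values among the microglial genes.

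The receptor complex of TREM2 and TYROBP held the highest mean ferret levels of the microglial group, while in ferret replicate 2 alone Mpeg1 was slightly above both. Trem2, a lipid-sensing receptor, stood at 1.04 and 0.511 FPKM in the ferret and at 45.9 and 43.0 FPKM in the mouse. Its adaptor Tyrobp stood at 0.868 and 0.509 FPKM in the ferret and at 148.8 and 142.3 FPKM in the mouse. Tyrobp had the largest log2 difference of the members, -6.45 (standard error 0.096), at position 12 of 10204 from the bottom. Trem2, with a mouse mean 57.5 times the ferret mean, had the smallest such ratio of the 7 genes. Per length, the ratio of Tyrobp to Trem2 was 3.24 and 3.31 in the mouse, and 0.838 and 0.995 in the ferret. In the ferret both levels were low and their libraries overlapped, so nothing is read from the ferret ratio.

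Mpeg1, which encodes the macrophage pore-forming protein perforin-2, stood at 0.376 and 0.529 FPKM in the ferret and at 85.9 and 82.2 FPKM in the mouse. Aif1, which encodes Iba1, the antigen used to stain microglia, stood at 0.0495 and 0.0465 FPKM in the ferret and at 12.6 and 10.6 FPKM in the mouse. Its mouse mean was 242 times the ferret mean, the largest ratio of the 7 genes. With ferret levels this low such ratios are rough, and nothing is read from their order. Ptprc, which encodes the leukocyte phosphatase CD45, stood at 0.0229 and 0.0313 FPKM in the ferret and at 5.15 and 4.75 FPKM in the mouse, a log2 difference of -2.53 (standard error 0.078). The log2 difference of Ptprc was the smallest of the group while its ratio of means was 183, since the added 1 weighs most on low levels. With 0.1 added in place of 1, the difference of Ptprc was -5.31 and that of Aif1 moved from -3.58 to -6.30.

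**Figure D2:**
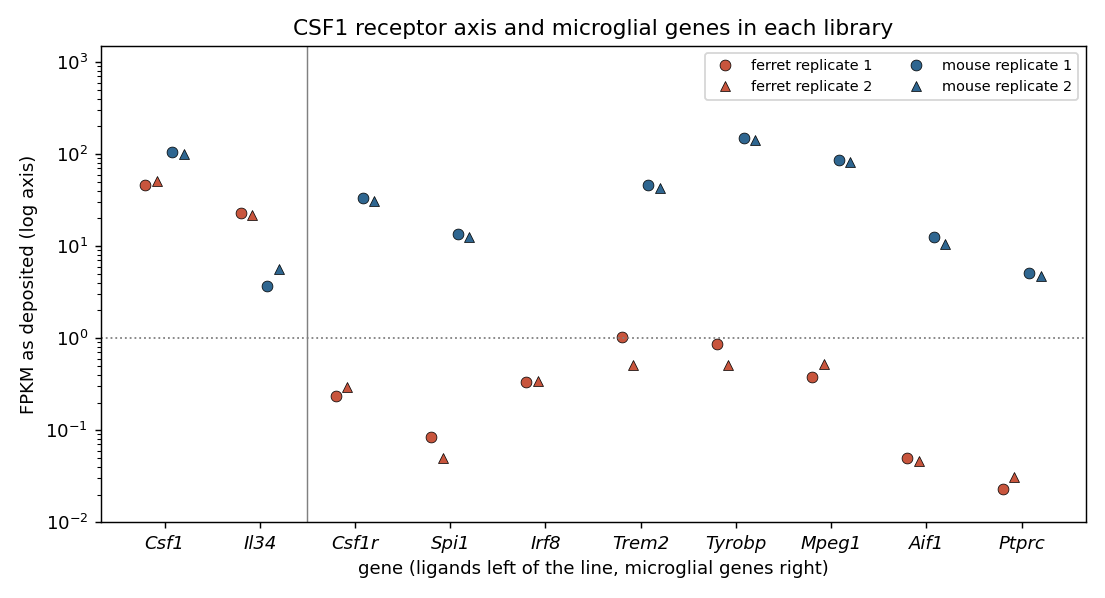
FPKM on a log axis for the 10 genes on the x axis, with 2 ferret (red) and 2 mouse (blue) libraries per gene; circles are replicate 1, triangles replicate 2, and the dotted line marks 1 FPKM. The microglial genes lie at or below 1.04 FPKM in the ferret and at or above 4.75 in the mouse, Irf8 has ferret points alone, and Il34 is the gene with the ferret points on top.

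The place of the ligands in the order of the levels also differed between the species. In the mouse, Tyrobp (146 FPKM on average) was above Csf1, followed by Mpeg1 (84.0), Trem2 (44.4), Csf1r (32.1), Spi1 (13.02), Aif1 (11.6), Ptprc (4.95) and Il34 (4.69). The libraries of Spi1 and Aif1 overlapped, as did those of Ptprc and Il34, and the other neighbours did not. In the ferret, Csf1 (48.3) and Il34 (22.2) led, and Trem2 (0.773), Tyrobp (0.688), Mpeg1 (0.453), Irf8 (0.338), Csf1r (0.265), Spi1 (0.0667), Aif1 (0.0480) and Ptprc (0.0271) followed. There the libraries of Trem2 and Tyrobp, Tyrobp and Mpeg1, and Spi1 and Aif1 overlapped. At ferret means of 0.773 FPKM or less a few reads can change the order, so nothing is read from that of the microglial genes.

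FPKM holds no read numbers, but single reads show as steps between low values. Among rows under 0.2 FPKM in both ferret libraries, the most frequent ratio of replicate 1 to replicate 2 was 0.853, the ratio that equal read numbers give. Spi1, at 1.71, stood at 2 times that ratio, as 2 reads against 1 or any multiple of them would give. From ferret replicate 1 to ferret replicate 2, Trem2, Tyrobp and Spi1 changed by factors of 0.494, 0.586 and 0.586, while Csf1r, Mpeg1 and Ptprc changed by factors of 1.27, 1.41 and 1.37. Irf8 and Aif1 changed by factors of 1.01 and 0.938. The microglial genes thus did not share a direction between the ferret duplicates. At such low levels steps of single reads enter these ratios, so nothing is read from their directions.

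The mouse duplicates allowed a look at these genes that the comparison of species did not use. All 7 microglial genes were lower in mouse replicate 2 than in mouse replicate 1, with log2 ratios of FPKM from -0.25 (Aif1) to -0.06 (Tyrobp) and a median of -0.09. Of the 9623 genes tested with a mean of at least 1 FPKM in the mouse, 40.0% were lower in replicate 2, and their median log2 ratio was 0.03 with quartiles of -0.05 and 0.09. Of 25 other microglial genes at or above 1 FPKM in the mouse, 14 were lower in replicate 2 and the median was -0.03. All 10 astrocyte markers were higher in replicate 2, with a median of 0.10. Of 15 broadly expressed signalling genes only 2 were lower in replicate 2 (median 0.06), and of 6 fibroblast markers 4 were lower (median -0.07). Neither direction was thus particular to microglial or astrocyte genes. Il34 went the other way from the microglial genes and rose most, with a log2 ratio of 0.60, and Csf1 stood at -0.05. With 1 library on each side, these ratios have no test.

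**Figure D3:**
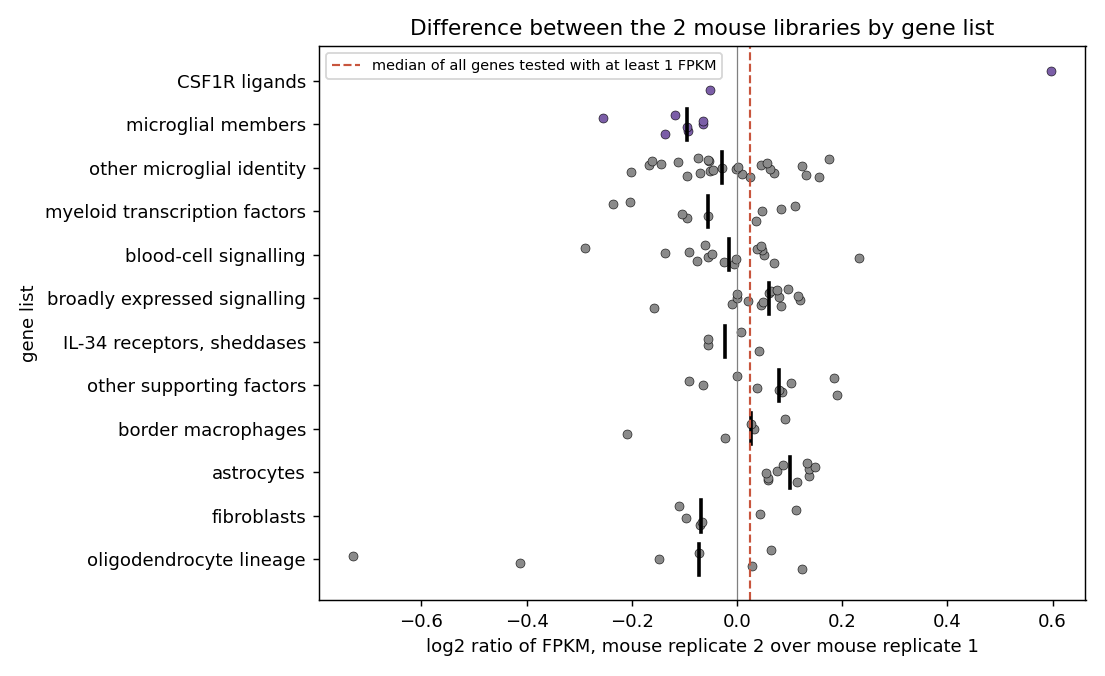
Log2 ratio of FPKM between mouse replicate 2 and mouse replicate 1 on the x axis for genes with a mean of at least 1 FPKM in the mouse, by gene list on the y axis; each point is a gene, black bars are medians of lists of over 2 genes, and the dashed line is the median of all genes tested. The 7 microglial genes lie left of 0, from -0.25 to -0.06, the 10 astrocyte markers lie right of 0, and Il34 stands apart at 0.60. Of the 15 broadly expressed signalling genes 2 lie left of 0, and of the 6 fibroblast markers 4 do.

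Another 13 lists were then described with limma, calling a gene at a Benjamini-Hochberg adjusted p under 0.05 over all 10204 genes and an absolute log2 difference above 1. By this rule 30.1% of all genes were lower and 13.1% higher in ferret astrocytes. A gene whose ferret mean was under 1 FPKM entered the fit only through the mouse and could only come out lower, so such genes are counted apart and given without a p. They made up 10.2% of the genes tested, and the 30.1% takes them in. The share called among the remaining genes was not computed. Counts of those remaining genes in the lists below are therefore a description, and nothing is read from them.

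Of 26 other microglial identity genes, 20 had values in both species, and 17 of these 20 were called lower in the ferret. Of the 20, 14 had entered only through the mouse, and of the other 6, 5 were called lower. The median of the 20 was -3.59 on the log2 scale, against -0.35 over all genes, and is set largely by those 14. C1qb, a chain of the first complement component, stood at 0.650 and 0.496 FPKM in the ferret and 120 and 118 FPKM in the mouse (log2 difference -6.26). C1qc (-6.19) and the lysosomal protease gene Ctss (-5.99) followed. Cd68, a lysosomal membrane protein of macrophages, had values over 1 FPKM in every library, at 2.49 and 2.79 in the ferret and 73.7 and 77.0 in the mouse (log2 difference -4.39, adjusted p = 2.71e-11 by limma). Cx3cr1, the fractalkine receptor of microglia, Ly86 and Hpgds are listed at 0 in both ferret libraries, with Cx3cr1 at 15.0 and 16.5 FPKM in the mouse. P2ry12, a purinergic receptor of resting microglia, was low in the mouse as well, at 2.26 and 2.30 FPKM. The other 3 were not called, among them Gpr34 and Csf3r at log2 differences of -0.94 and -0.88. Tmem119 and Olfml3 were called lower with ferret levels of 4.01 and 3.67 FPKM and of 5.71 and 5.94 FPKM. Lyz2, the macrophage lysozyme gene, had the highest mouse level of the list (1065 and 1025 FPKM), with no ferret symbol matched.

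Among myeloid transcription factors, 5 of 8 tested were called lower in the ferret, and the median of the 8 was -1.47 on the log2 scale. In this list 4 of the 8 had entered only through the mouse, and of the other 4, 1 was called lower, Mef2c, a factor shared with neurons and muscle (2.08 and 1.94 FPKM in the ferret, 9.99 and 10.6 in the mouse, log2 difference -1.91, adjusted p = 5.86e-09 by limma). Cebpa, which specifies the myeloid lineage, differed most (0 and 0.106 FPKM in the ferret, 9.29 and 8.94 in the mouse, log2 difference -3.27). Ikzf1 and Tfec were also among those called, and like Cebpa had entered only through the mouse. Sall1, a regulator of microglial identity that neural progenitors also express, stood at 15.7 and 15.1 FPKM in the ferret and 8.24 and 8.45 FPKM in the mouse. Its log2 difference of 0.81 was under the limit for a call with FPKM as deposited, and passed it after either rescaling or quantile normalization. Runx1 (-0.22) and Irf5 (-0.40) were not called.

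The signalling proteins below CSF1R and TYROBP were split by where they are known to be expressed. Of those typical of blood cells, 14 were tested and 12 called lower in the ferret, and the median of the 14 was -1.80 on the log2 scale. Of these 14, 10 had entered only through the mouse, and of the other 4, 2 were called lower. Rac2, the small GTPase of blood cells, was one of them, at 1.51 and 1.77 FPKM in the ferret and 13.3 and 13.7 FPKM in the mouse (log2 difference -2.46, adjusted p = 1.41e-09 by limma). Ptpn6, the phosphatase SHP-1, stood at 0.0884 and 0.0907 FPKM in the ferret and 8.31 and 7.81 FPKM in the mouse (log2 difference -3.06). Hcls1 (-3.00), the exchange factor gene Vav1 (-2.68) and Plcg2 (-1.73), the phospholipase below TREM2, were also called lower. Like Ptpn6, they had entered only through the mouse. Lyn (-0.81) and Pik3cd (-0.66) were not called, and Fgr was under 1 FPKM in both species. Syk, the kinase that binds the TYROBP motif, stood at 5.78 and 5.75 FPKM in the mouse, with no ferret symbol matched.

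Of 15 broadly expressed signalling genes, 2 were higher in ferret astrocytes and 13 were not called, and the median log2 difference was -0.07. Over all genes tested 13.1% were called higher, so nothing is read from this count. Shc1, an adaptor of receptor tyrosine kinases, stood at 100 and 112 FPKM in the ferret and 40.4 and 40.2 FPKM in the mouse (log2 difference 1.37, adjusted p = 2.77e-08 by limma). Fyn, at a log2 difference of 1.01, was the other, and its call was lost without ferret replicate 2 and without mouse replicate 1. Grb2, which couples CSF1R to the Ras pathway, stood at a log2 difference of -0.46.

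IL-34 also binds the receptor phosphatase PTPRZ1 and the proteoglycan syndecan-1. Ptprz1 stood at 81.7 and 75.5 FPKM in the ferret and 62.7 and 64.6 FPKM in the mouse, a log2 difference of 0.30 that was under the limit for a call. Sdc1, which encodes syndecan-1, was lower in ferret astrocytes, at 3.51 and 3.82 FPKM against 14.1 and 13.6 FPKM (log2 difference -1.67, adjusted p = 1.18e-08 by limma). Adam10 and Adam17, proteases that shed surface proteins such as TREM2 and CSF1, stood at log2 differences of -0.19 and -0.32 and were not called.

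Other factors that act on microglia or blood cells were listed as well. Of 7 tested, 3 were lower and 1 was higher in ferret astrocytes. Over all genes tested 30.1% were lower and 13.1% higher, so nothing is read from these counts. Tgfb3 (-0.61) and Cd47 (-0.65) were among those not called. Cx3cl1, the fractalkine ligand of Cx3cr1, was the higher one, with 29.8 and 30.7 FPKM in the ferret and 5.68 and 5.82 FPKM in the mouse (log2 difference 2.21, adjusted p = 7.24e-10 by limma). Its receptor was listed at 0 in the ferret, as described above. The alarmin gene Il33 (-2.87, entered only through the mouse), Cd200 (-2.79), whose product restrains myeloid cells, and Tgfb2 (-1.80) were lower. Tgfb1, which keeps microglia in their resting state, stood at 6.82 and 7.55 FPKM in the ferret and 7.16 and 8.17 FPKM in the mouse, with a log2 difference of -0.08 and an adjusted p of 0.383 by limma. Csf2 and Csf3, the other colony-stimulating factor genes, were at or below 0.0525 FPKM in every library.

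**Figure D4:**
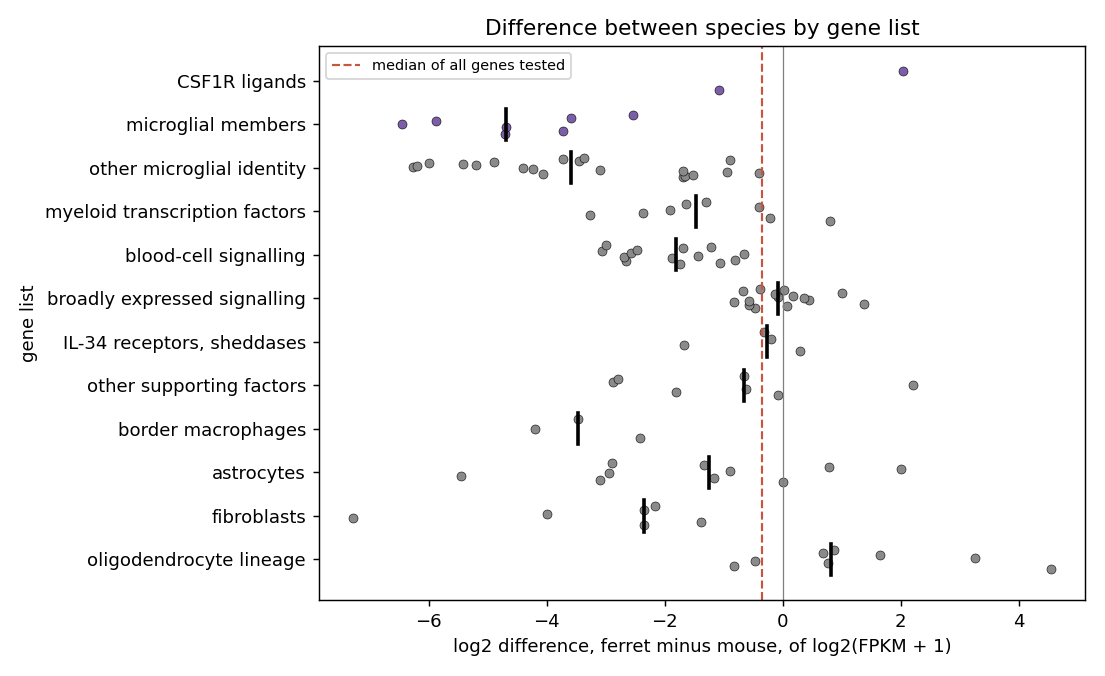
Log2 difference, ferret minus mouse, of log2(FPKM + 1) on the x axis for the tested genes of each list on the y axis; each point is a gene, black bars are medians of lists of over 2 genes, and the dashed line is the median of all genes tested, -0.35. The 7 microglial genes centre on -4.69 and the other microglial identity genes on -3.59, the ligands lie at -1.08 and 2.05, and the broadly expressed signalling genes centre on -0.07.

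Markers of other cells that the cultures could hold were read beside these values. Border macrophages share much of the microglial programme, and their 3 markers tested had all entered only through the mouse, among them Ms4a7 (0.125 and 0.0549 FPKM in the ferret, 18.7 and 19.1 in the mouse). Lyve1, too low to be tested, stood at 0.507 and 0.764 FPKM in the ferret and 0.453 and 0.344 FPKM in the mouse. The summed FPKM of the 7 border markers matched in both species was 1.82 and 2.27 in the ferret and 46.9 and 47.5 in the mouse, while Cd163 was at or below 0.0349 FPKM in every library. For lymphocytes and granulocytes, which also carry CD45, 10 markers summed to 1.54 and 2.35 FPKM in the ferret and 0.965 and 0.766 FPKM in the mouse. Of these Cd3g, Ms4a1 and Cpa3 are listed at 0 in all 4 libraries. Fibroblast markers moved with the microglial genes: 6 of 6 were lower in ferret astrocytes, 5 of them with a ferret mean of at least 1 FPKM, and their sum was 126 and 111 FPKM in the ferret against 853 and 809 FPKM in the mouse. Of the endothelial markers 2 were tested, and both entered only through the mouse. These were Cdh5, at 21.96 and 22.46 FPKM in the mouse libraries, and Tek, at 1.34 FPKM in each. Both are listed at 0 in both ferret libraries. Pecam1, too low to be tested, was at or below 0.0407 FPKM in every library. The part of macrophages and fibroblasts in the difference of the microglial genes was not tested.

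The astrocyte label held in both species for Gfap, at 1481 and 1522 FPKM in the ferret and 1429 and 1546 FPKM in the mouse, while Slc1a2, the gene of the glutamate transporter GLT-1, was near 0 in the ferret (0.133 and 0.178 FPKM). Of 10 astrocyte markers 6 were lower and 1 was higher in ferret astrocytes. Slc1a2 had entered only through the mouse, and of the other 9, 5 were called lower. After rescaling, and after quantile normalization, 4 were called lower and 2 higher. With FPKM as deposited the median log2 difference of the 10 was -1.25. Their summed level was 3576 and 3674 FPKM in the ferret and 3258 and 3530 FPKM in the mouse, and Gfap and Aldoc (1619 and 1700 FPKM in the ferret) made up most of it in the ferret. Of 8 oligodendrocyte lineage genes tested 3 were higher in ferret astrocytes, Sox10 and Mbp among them, and 5 were not called. Of those not called, Olig2 (-0.82) and Cspg4 (-0.47) stood lower in the ferret and the others higher. Olig1 stood at 107 and 117 FPKM in the mouse, with no ferret symbol matched. Of 2 neuron markers tested Syt1 was higher in the ferret and Map2 was not called, at 18.8 and 19.0 FPKM in the ferret and 30.4 and 31.3 FPKM in the mouse (log2 difference -0.68). Stmn2 stood at 124 and 127 FPKM in the mouse, with no ferret symbol matched, and Rbfox3, the gene of NeuN, was at or below 0.0839 FPKM in every library.

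Finally, the genes whose levels were most like those of Csf1 and Csf1r were listed, by Euclidean distance in log2(FPKM + 1) over the 4 libraries among the other 10203 genes tested. For Csf1 they were Erp29 (distance 0.089), Pttg1ip (0.172), Son (0.181), Coro1b (0.209) and Nap1l1 (0.217). For Csf1r they included Tmem98 (0.179), Col4a6 (0.228), Slc7a2 (0.286) and C1ql3 (0.342). Tmem98, for example, stood at 0.250 and 0.362 FPKM in the ferret and 31.8 and 33.8 FPKM in the mouse. No other member and no gene of the microglial lists was among the 5 nearest to Csf1r. The distance compares levels, so a gene with the same direction at another level ranks far away. Nothing is read from this absence.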

How the data were processed

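The authors sequenced polyA-selected, stranded libraries of cultured astrocytes, 2 of the ferret and 2 of the mouse, mapped them with STAR 2.7.0f to the Ensembl ferret or mouse genome and deposited FPKM per gene from Cufflinks 2.2.1. FPKM holds no read counts, so it does not give the depth, and read counts were not used here. Steps between the lowest values give only the ratio of depths of replicate 1 to replicate 2, 1.17 in ferret and 0.835 in mouse. Symbols were matched in upper case, with the highest row kept where a symbol had several. R 4.3.3 and limma 3.58.1 (moderated by empirical Bayes, trended) compared the species on log2(FPKM + 1). This covered 10204 genes whose mean reached 1 FPKM in either species. The fit was tested on simulated data. Joins used Python 3.11.15. Mouse coordinates are from GENCODE on GRCm38, in another release than the authors'. The members and the 13 lists were chosen with earlier results of these data known. Named genes are the members, the list genes with the largest or smallest differences or listed at 0, and the 5 genes nearest to Csf1 and to Csf1r, and others of the lists were named after their values were seen. Some genes of the lists are not reported here. Alternatives were a pseudocount of 0.1, no filter, rescaling, quantile normalization, a replicate block, summed rows and each library left out.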

Additional observations from a re-analysis of the deposited data

How the results depend on the processing

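Over 10 alternatives the log2 differences of the 9 members with a value kept their direction. Genes called higher in ferret astrocytes rose from 1336 to 2110 after quantile normalization. Myeloid transcription factors called higher went from 0 to 1 (Sall1) after rescaling and after quantile normalization, astrocyte markers called higher from 1 to 2 under the same settings, and oligodendrocyte lineage genes called higher from 3 to 5 under these and with a pseudocount of 0.1. Leaving out each library in turn gave 1 to 2 broadly expressed signalling genes called higher, 3051 to 3096 genes lower and 1320 to 1374 higher over all genes. When a species is left with 1 library, that library is assumed to vary like the other species. The other counts stayed within 1.5 times. The replicate numbers are shared by label alone, and the deviations of same-numbered libraries had a correlation of 0.00995 across 10204 genes. With a replicate block 1342 genes were higher and 3072 lower. FPKM does not give the depth, and the read counts that the authors list were not used. Ferret values near 0 therefore carry no interval here.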
